A study of Mus musculus with 15 samples.

Results

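Notch signalling was followed through 9 of its genes in differentiating mouse embryonic stem (ES) cells with and without Mettl5, which encodes an RNA methyltransferase that modifies ribosomal RNA. The genes were the receptor Notch1, the ligands Dll1, Dll3 and Jag1, the transcription factors Hes1, Hes5, Hey1 and Heyl, and the feedback regulator Nrarp. They were found by symbol in a table of 18762 genes, and all 9 were listed. RNA was sequenced in 15 libraries from ES cells of strain C57BL/6N, wild type (WT) or Mettl5-/- (KO). Each genotype was sampled as untreated ES cells at day 0, as embryoid bodies (EBs), and in N2B27, a serum-free medium used for neural differentiation. The EBs had been kept for 6 days without the cytokine LIF on dishes coated with poly(2-hydroxyethyl methacrylate), which prevents attachment, and the N2B27 cells for 6 days in that medium. Every WT group held 2 libraries, titled Ctr (replicate 1) and WT (replicate 2), and every KO group held 3 (replicates 1 to 3). The deleted part of Mettl5, the making of the lines and any difference between Ctr and WT are not given in the sources used here.

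Notch is a receptor at the cell surface that is bound by ligands of the Delta-like and Jagged families on a neighbouring cell. Binding leads to cleavage of the receptor, and its intracellular part enters the nucleus, where it acts with the DNA-binding protein RBPJ to raise transcription of HES and HEY genes, which encode repressors. In the developing neural tube this exchange keeps some cells as progenitors while their neighbours, which express more Delta ligand, become neurons.

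The values are FPKM, fragments scaled to transcript length and to library size, so levels can be set beside each other between genes. The FPKM of all genes summed to 451651 to 554986 per library, and 10953 to 11807 genes reached 1. Mettl5 itself was at 8.37 to 20.85 FPKM in the WT libraries and 3.29 to 10.65 in the KO libraries, and within each culture every KO library lay below both WT libraries. Of 8 pluripotency markers all fell in both differentiated WT cultures (limma, adjusted p under 0.05), beside 23.6% of all tested genes in EBs and 29.2% in N2B27. Of 10 neural progenitor markers all rose in both by the same measure, beside 35.8% and 41.5%. Pax3, Zic1, Fabp7, En1 and Irx3 among them were below 1 FPKM in every ES library. They were tested only because of the differentiated cultures, so their rise is a description. The summed FPKM of the pluripotency markers was 3609.0 to 3915.1 in ES cells, 1286.8 to 1890.0 in EBs and 81.9 to 176.7 in N2B27. That of the neural progenitor markers was 18.6 to 20.8, 165.5 to 207.6 and 519.0 to 599.9 in the same order. In EBs the summed markers of endoderm were at 108.8 to 152.6 and those of primitive streak and presomitic mesoderm at 34.3 to 134.5. In N2B27 these sums were 89.7 to 130.5 and 9.97 to 27.3, so the endoderm sums overlapped. Without Cldn6, the endoderm marker with the highest mean over all libraries, endoderm was at 14.5 to 54.1 in EBs. In N2B27 it was then at 55.1 to 91.0, with Cxcr4 at 41.21 to 61.11. The EBs thus held markers of several lineages, and those of endoderm were not particular to EBs.

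Differences between groups are given as log2 differences of FPKM + 1, with their standard error, from a limma fit of all 15 libraries, and a gene was called at a Benjamini-Hochberg adjusted p under 0.05 over the 12929 genes that reached an FPKM of 1 in at least 2 libraries. This scale understates the change of genes with low FPKM. Of the 9 genes, 8 were tested. Heyl was not, with an FPKM of at most 0.07 in every library. Dll1, Hes5 and Hey1 were below 1 FPKM in every ES library and were tested only because of their levels in the differentiated cultures. Their rise from ES cells to a culture in which they are high is therefore given as a description, without a p-value. In whole cultures, more cells of a type and more RNA per cell cannot be told apart.

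In WT cells, 5 of the 8 tested genes were higher in EBs than in ES cells and none was lower, where 35.8% of all tested genes were called higher and 23.6% lower. In N2B27 against ES cells 7 of the 8 were higher and none was lower, against 41.5% and 29.2% of all tested genes. Between the differentiated WT cultures, 6 of the 8 were higher in N2B27 than in EBs and none was lower, against 31.2% and 25.3%. In KO cells 5 were higher and 1 was lower in EBs than in ES cells (36.2% and 28.5% of all tested genes), 7 were higher and none lower in N2B27 than in ES cells (43.5% and 33.2%), and 7 were higher and none lower in N2B27 than in EBs (38.8% and 29.6%). These counts include Dll1, Hes5 and Hey1, which entered the test only through cultures in which they are high. Of the 5 genes that reached the filter within the ES libraries (Notch1, Dll3, Jag1, Hes1 and Nrarp), 3 were higher in WT EBs and 4 in WT N2B27 than in WT ES cells. In KO cells 3 of the 5 were higher and 1 was lower in EBs, and 4 were higher in N2B27. With so few genes no share is read against that of all genes. The WT gene that stood outside the rise in each of these 3 comparisons was Hes1.

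**Figure D1:**
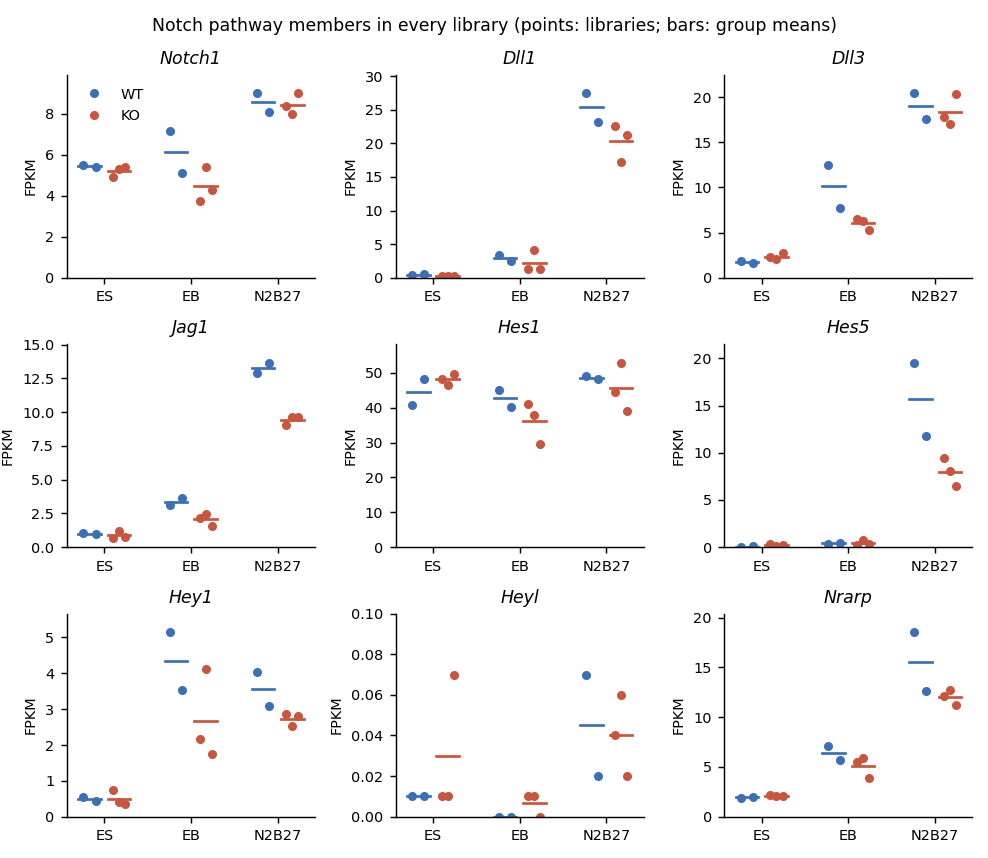
FPKM of the 9 genes in each of the 15 libraries, 1 panel a gene, by culture and genotype; points are libraries and bars are group means. Dll1, Dll3, Jag1, Hes5 and Nrarp are highest in N2B27, and Hey1 is at like levels in EBs and N2B27. Hes1 lies between 29.70 and 52.93, with its lowest group means in EBs.

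Notch1, the receptor (chr2:26457902-26503822, minus strand, GRCm38.p6), was present in every library. Its FPKM in WT ES cells was 5.49 and 5.39, in WT EBs 7.16 and 5.11, and in WT N2B27 cultures 9.01 and 8.11. In the KO libraries it was 4.91, 5.32 and 5.39 in ES cells, 3.76, 5.39 and 4.29 in EBs, and 8.37, 7.98 and 9.02 in N2B27. All N2B27 libraries lay above all ES and EB libraries, while ES cells and EBs overlapped. From ES cells to N2B27 Notch1 rose by 0.57 ± 0.15 (SE) in WT (limma adjusted p = 0.0029) and by 0.61 ± 0.12 in KO (adjusted p = 0.000306). It was also called higher in N2B27 than in EBs, by 0.44 ± 0.15 in WT (limma adjusted p = 0.0197) and 0.80 ± 0.12 in KO (adjusted p = 3.67e-05). The WT call was lost without WT EB replicate 2 (0.23, adjusted p = 0.24), without WT N2B27 replicate 1 (0.37, adjusted p = 0.113) and with only the compared groups in the fit (0.44, adjusted p = 0.074), and the range over all alternatives was 0.00412 to 0.24. The change from ES cells to EBs was 0.13 ± 0.15 in WT and -0.19 ± 0.12 in KO, neither of which passed (limma adjusted p = 0.451 and 0.177). Without KO EB replicate 2 the KO change was -0.31 and passed (adjusted p = 0.0331, with a range of 0.0331 to 0.528 over all alternatives).

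The other 3 receptor genes were measured too, and the makeup of the family differed between cultures. Notch3 was called higher in WT EBs (1.73) and WT N2B27 (2.12) than in WT ES cells, as was Notch2 (0.98 and 1.58), while Notch4, best known from endothelium, was called lower (-1.88 and -2.20). As a share of the FPKM of all 4 receptor genes, Notch1 made up 23.5 to 25.1% in WT ES cells and 14.4 to 16.5% in WT N2B27. Notch3 went from 27.1 to 28.0% in WT ES cells to 53.0 to 55.6% in WT N2B27, and Notch4 from 26.7 to 26.9% to 0.814 to 1.08%. Notch1 thus rose in level and was a smaller share of the receptor transcripts in N2B27.

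**Figure D2:**
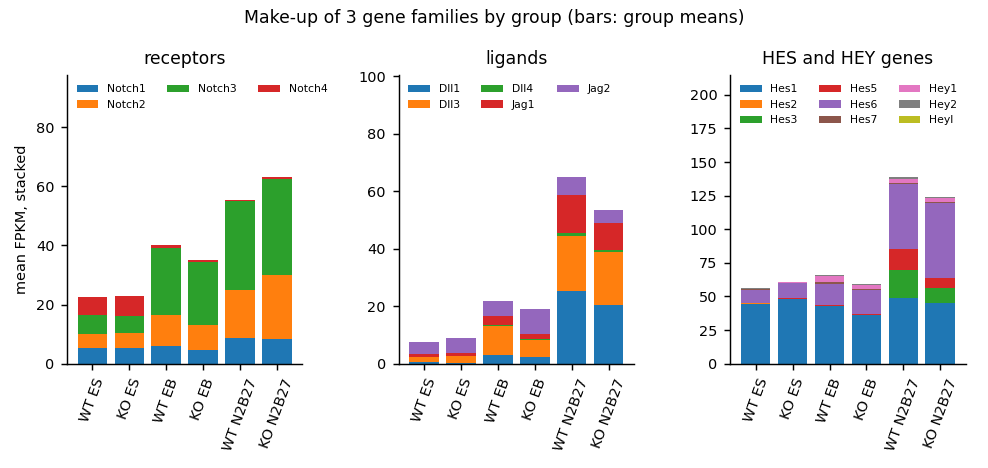
Mean FPKM of each gene by group, stacked within its family, for receptors, ligands and HES/HEY genes. Notch3 is the largest part of the receptor bars in N2B27. Dll1, Dll3 and Jag1 make up most of the ligand bars there. Hes1 has a like height in ES cells and N2B27, where Hes6, Hes3 and Hes5 add to the HES/HEY bars.

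Dll1, a Delta-like ligand that activates the receptor on neighbouring cells (chr17:15367354-15376932, minus strand), had the lowest level of the 3 ligands in ES cells and the highest in N2B27 WT cultures. Its FPKM was 0.44 and 0.49 in WT ES cells, 3.36 and 2.45 in WT EBs, and 27.49 and 23.23 in WT N2B27. In KO libraries it was 0.26, 0.31 and 0.29 in ES cells, 1.35, 4.09 and 1.26 in EBs, and 22.51, 17.22 and 21.20 in N2B27. No library of 1 culture overlapped with a library of another. In WT the log2 change from ES cells was 1.40 ± 0.28 in EBs and 4.16 ± 0.28 in N2B27. KO cells gave 1.22 ± 0.23 and 4.04 ± 0.23. The window from 250 bases before to 50 bases after a start of Dll1 in the RefSeq table (chr17:15376883-15377182, minus strand, GRCm38.p6) is shown because Dll1 is the ligand with the largest change. Capitals mark CAGCTG, an E-box of the kind bound by proneural factors, and CACGCG, a site of the kind bound by HES repressors.
Dll1: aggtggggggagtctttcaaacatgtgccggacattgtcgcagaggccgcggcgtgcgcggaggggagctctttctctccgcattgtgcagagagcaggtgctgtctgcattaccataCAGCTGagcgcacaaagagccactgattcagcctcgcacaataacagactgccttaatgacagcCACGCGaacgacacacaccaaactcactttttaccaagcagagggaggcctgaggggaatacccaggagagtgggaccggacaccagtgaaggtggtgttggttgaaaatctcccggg

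The CAGCTG lies at -132 to -127 and the CACGCG at -68 to -63 from the start. Of all promoter windows of this length, 16.3% hold CAGCTG and 9.27% hold CACGCG on either strand, so each match alone is common. The table lists a second start of Dll1, whose window (chr17:15375774-15376073, minus strand) holds neither.

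Dll3, a divergent Delta-like protein that in mouse acts within the cell rather than activating Notch on a neighbour (chr7:28293555-28301785), had the highest FPKM of the 3 ligands in every EB library. Its FPKM was 1.85 and 1.62 in WT ES cells, 12.53 and 7.67 in WT EBs, and 20.45 and 17.54 in WT N2B27. KO libraries had 2.26, 2.03 and 2.75 in ES cells, 6.53, 6.25 and 5.24 in EBs, and 17.79, 16.99 and 20.38 in N2B27. The cultures did not overlap in either genotype. Relative to ES cells, the WT change was 1.99 ± 0.18 in EBs (limma adjusted p = 4.34e-07) and 2.87 ± 0.18 in N2B27 (adjusted p = 3.6e-09), and the KO change 1.07 ± 0.15 and 2.54 ± 0.15 (adjusted p = 1.82e-05 and 8.92e-10).

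Jag1, a ligand of the Jagged family (chr2:137081451-137116520, minus strand), had an FPKM of 1.02 and 1.0 in WT ES cells, 3.09 and 3.64 in WT EBs, and 12.86 and 13.67 in WT N2B27. The KO libraries were at 0.72, 1.22 and 0.78 in ES cells, 2.18, 2.45 and 1.60 in EBs, and 9.01, 9.64 and 9.63 in N2B27. Every EB library was above every ES library and every N2B27 library above every EB library. The change from ES cells was 1.12 ± 0.14 and 2.83 ± 0.14 in WT (EBs and N2B27, limma adjusted p = 1.52e-05 and 5.28e-10), and 0.69 ± 0.12 and 2.46 ± 0.12 in KO (adjusted p = 0.000148 and 1.34e-10).

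The ligand that led in ES cells was Jag2, with 57.3 to 58.9% of the summed FPKM of the ligand genes in WT ES cells and 9.3 to 9.61% in WT N2B27. Dll1 went the other way, from 5.47 to 6.73% to 38.0 to 40.2%. The ratio of Dll1 to Dll3 FPKM was 0.105 to 0.302 in the ES libraries and 1.01 to 1.34 in the N2B27 libraries. Dll4 was called higher in WT N2B27 (1.05) and, with a small change of 0.40, in WT EBs (limma adjusted p = 0.033), which did not hold with the library name as a block (adjusted p = 0.0547) or without WT ES replicate 1 (0.0983), WT ES replicate 2 (0.102) or WT EB replicate 2 (0.27).

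Hes1, a repressor that many signals besides Notch induce, was the most abundant of the 9 genes in every culture (chr16:30065357-30067796). Its FPKM was 40.80 and 48.13 in WT ES cells, 45.14 and 40.32 in WT EBs, and 49.03 and 48.13 in WT N2B27. In KO libraries it was 48.32, 46.43 and 49.72 in ES cells, 40.99, 37.95 and 29.70 in EBs, and 44.59, 52.93 and 38.96 in N2B27. In WT the ES libraries overlapped with the EBs and reached the N2B27 libraries, which lay above the EBs, and in KO every EB library lay below every ES library. In WT no change passed: -0.05 ± 0.15 in EBs and 0.13 ± 0.15 in N2B27 against ES cells (limma adjusted p = 0.77 and 0.444). In KO EBs Hes1 was called lower than in KO ES cells, by -0.41 ± 0.12 (limma adjusted p = 0.00763). In KO N2B27 it was called higher than in KO EBs (0.32 ± 0.12, limma adjusted p = 0.0274) although the libraries overlapped. That last call was lost without KO EB replicate 3 (0.19, adjusted p = 0.156), without KO N2B27 replicate 1 (0.33, adjusted p = 0.053) or 2 (0.21, adjusted p = 0.139), under median-ratio scaling (0.27, adjusted p = 0.0709) and with only the compared groups in the fit (0.32, adjusted p = 0.0813), with a range of 0.000343 to 0.156 over all alternatives.

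Hes5, a repressor that in neural progenitors depends on Notch (chr4:154960626-154962372), was near 0 in ES cells and EBs and appeared in N2B27. In WT ES cells it was listed at 0.00 and 0.13 FPKM, in WT EBs at 0.32 and 0.47, and in WT N2B27 at 19.55 and 11.82. In KO libraries it was at 0.31, 0.13 and 0.21 in ES cells, 0.28, 0.78 and 0.31 in EBs, and 9.44, 8.07 and 6.44 in N2B27. Each N2B27 library was far above every library of the other cultures. The log2 change from ES cells to N2B27 was 3.93 ± 0.22 in WT and 2.87 ± 0.18 in KO. From ES cells to EBs it was 0.39 ± 0.22 in WT and 0.25 ± 0.18 in KO, and neither passed (limma adjusted p = 0.135 and 0.238). With values this low the WT result in EBs depended on the scale: it passed with a pseudocount of 0.1 (1.69, adjusted p = 0.0052), with TPM scaling (0.64, adjusted p = 0.0474) and with only the compared groups in the fit (0.39, adjusted p = 0.0214), and ranged up to 0.376 over all alternatives.

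Hey1, a repressor of the related HEY family (chr3:8663359-8667038), was at like levels in EBs and N2B27. Its FPKM was 0.54 and 0.43 in WT ES cells, 5.15 and 3.54 in WT EBs, and 4.03 and 3.08 in WT N2B27. The KO libraries were at 0.75, 0.41 and 0.36 in ES cells, 2.16, 4.11 and 1.74 in EBs, and 2.87, 2.52 and 2.82 in N2B27. EBs and N2B27 overlapped in both genotypes and both lay above ES cells. The changes from ES cells were 1.83 ± 0.24 (EBs) and 1.61 ± 0.24 (N2B27) in WT, while N2B27 against EBs gave -0.22 ± 0.24 (limma adjusted p = 0.441). KO cells gave 1.24 ± 0.19 and 1.32 ± 0.19 for the changes from ES cells and 0.08 ± 0.19 for N2B27 against EBs (limma adjusted p = 0.734 for the last).

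Nrarp, a small protein that acts with the Notch intracellular part and limits its activity (chr2:25180758-25183339), had an FPKM of 1.88 and 2.00 in WT ES cells, 7.07 and 5.70 in WT EBs, and 18.55 and 12.59 in WT N2B27. KO libraries were at 2.21, 2.05 and 2.08 in ES cells, 5.55, 5.92 and 3.87 in EBs, and 12.09, 12.69 and 11.23 in N2B27. The cultures did not overlap. Nrarp rose from ES cells by 1.32 ± 0.18 (EBs) and 2.47 ± 0.18 (N2B27) in WT (limma adjusted p = 1.83e-05 and 1.47e-08), and by 0.96 ± 0.14 and 2.06 ± 0.14 in KO (adjusted p = 4.35e-05 and 7.38e-09).

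**Figure D3:**
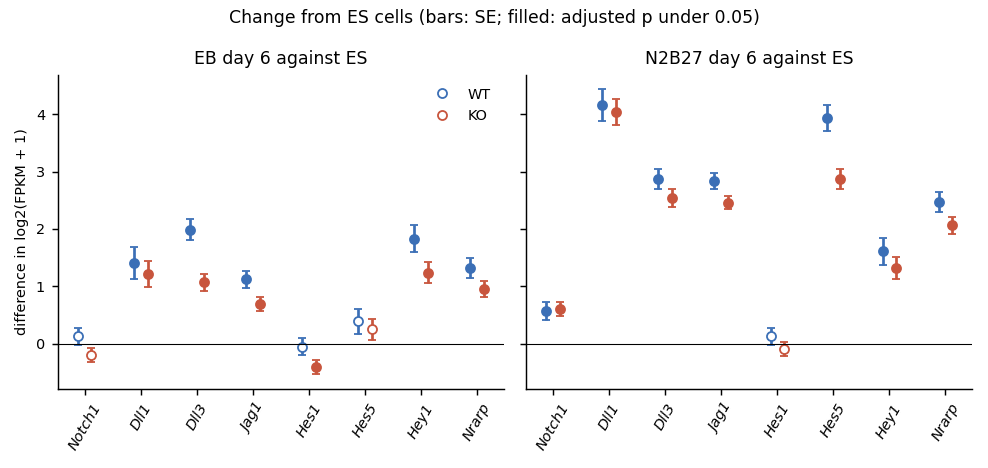
Log2 difference of FPKM + 1 from ES cells to EBs and from ES cells to N2B27 for the 8 tested genes in WT and KO, with bars of 1 standard error from limma. The 7 genes other than Hes1 lie at 0.57 or above in N2B27 in both genotypes, and Hes5 and Notch1 are near 0 in EBs.

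The RefSeq promoter windows of Hes5 (chr4:154960673-154960972, plus strand) and Nrarp (chr2:25180508-25180807, plus strand) are shown because these genes are known targets of the receptor and rose together in N2B27. Capitals mark TGTGGGAA or its reverse complement TTCCCACA, the high-affinity form of the site bound by RBPJ, and also CACGTG, an E-box, and CAGCTG.
Hes5: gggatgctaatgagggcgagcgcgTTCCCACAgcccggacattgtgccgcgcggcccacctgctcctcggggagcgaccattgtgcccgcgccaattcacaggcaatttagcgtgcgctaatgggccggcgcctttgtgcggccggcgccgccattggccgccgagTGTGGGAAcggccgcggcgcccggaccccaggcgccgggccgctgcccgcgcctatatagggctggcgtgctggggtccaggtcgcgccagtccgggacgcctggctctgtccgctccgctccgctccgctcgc
Nrarp: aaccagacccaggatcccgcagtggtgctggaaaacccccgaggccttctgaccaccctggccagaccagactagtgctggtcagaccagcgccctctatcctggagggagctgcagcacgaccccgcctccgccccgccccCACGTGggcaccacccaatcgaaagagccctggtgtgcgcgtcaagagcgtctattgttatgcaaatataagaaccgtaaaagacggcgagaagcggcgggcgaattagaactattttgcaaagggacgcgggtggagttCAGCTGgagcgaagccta

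The Hes5 window holds the RBPJ letters in 2 places, on the minus strand at -226 to -219 and on the plus strand at -84 to -77 from the start. Of 32851 windows in the table, 610 (1.86%) hold TGTGGGAA on either strand and 15 (0.0457%) hold it in 2 or more places. The other windows found for the members, of Notch1, Dll1, Dll3, Jag1 and Nrarp, hold no TGTGGGAA within these 300 bases. The shorter core TGGGAA is in 25.6% of all windows. Nrarp has CACGTG at -108 to -103 and CAGCTG at 33 to 38, and CACGTG is in 7.15% of all windows. Of the 9 genes, 6 had a window in the table.

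As a share of all HES and HEY transcripts by FPKM, Hes1 made up 79.2 to 79.6% in WT ES cells and 32.6 to 37.9% in WT N2B27, with its own FPKM between 40.32 and 49.03 in all WT libraries. Hes6, which opposes Hes1 and favours neuronal differentiation, made up 18.0 to 18.1% and 31.6 to 38.4%. The mean of Hes6 was 10.1 FPKM in WT ES cells, 16.2 in EBs and 48.2 in N2B27 (log2 changes from ES cells 0.64 and 2.15, both called). Hes3, which like Hes5 is expressed in the neuroepithelium, went from a mean of 0.08 FPKM in WT ES cells to 21.1 in WT N2B27 (4.27). The libraries were far apart, at 28.65 and 13.58 FPKM in WT N2B27, and KO N2B27 had 12.25, 14.56 and 5.09. The summed FPKM of the family was 51.5 to 60.5 in WT ES cells and 127.1 to 150.5 in WT N2B27. The ratio of Hes1 to Hes5 FPKM was 2.51 and 4.07 in the WT N2B27 libraries and 4.72 to 6.56 in the KO N2B27 libraries.

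Across all 15 libraries, which share their 3 cultures and 2 genotypes, the log2 levels of Dll1 and Jag1 had a Pearson r of 0.984, Dll3 and Nrarp 0.981, Dll1 and Nrarp 0.966, and Dll1 and Hes5 0.955. Hes1 stood apart, with r of -0.17 to 0.412 with the other tested members. Among all tested genes the patterns most like those of 6 members over the 15 libraries were Ube2r2 for Dll1 (0.995), Farp1 for Dll3 (0.991), Ednra for Jag1 (0.992), Fam78b for Hes5 (0.994), Igf2bp2 for Hey1 (0.975) and Tead2 for Nrarp (0.993). For Hes1 the nearest pattern, that of Gpaa1, reached only 0.873. These values mostly describe the difference between cultures.

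A further 61 genes of the pathway were listed by role, of which 55 were tested. In WT EBs 23 of the 55 were called higher and 12 lower than in ES cells, with a median log2 change of 0.25 beside 0.11 over all tested genes, of which 35.8% were called higher and 23.6% lower. In WT N2B27 32 were higher and 10 lower, with a median of 0.54 beside 0.12, where 41.5% and 29.2% of all tested genes were called. KO cells gave 23 higher and 14 lower in EBs (36.2% and 28.5% of all tested genes), and 33 higher and 12 lower in N2B27 (43.5% and 33.2%). The counts in EBs are close to the shares over all genes, and the WT shares are also the background of the counts by role that follow. All these counts include genes such as Hes3, Hey2, Dll4, Dtx4, Maml2, Maml3 and Aph1b, which were below 1 FPKM in every ES library. Such genes entered the test only through the differentiated cultures, so their rise from ES cells is a description, here and by role. The counts and medians are thus in part set by the filter.

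Among genes that process the receptor, 5 of 8 tested cleavage genes were called higher in WT EBs and 5 in WT N2B27, with none lower (background 35.8% higher and 23.6% lower, and 41.5% and 29.2%). Adam10, the protease that makes the first cut after ligand binding, changed by 0.73 and 1.53 in EBs and N2B27. Aph1b, a subunit of gamma-secretase, changed by 0.75 and 1.31. Of the 5 glycosylation genes, Lfng, a sugar transferase that alters which ligands the receptor answers to, rose by 1.96 and 3.33, while Poglut1 fell by 0.87 and 0.92.

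The ubiquitin ligases and endocytic genes moved in both directions, with 5 higher and 2 lower of 11 tested in WT EBs and 5 higher and 3 lower in WT N2B27, near the same shares of all tested genes. Dtx4, an E3 ligase of the Deltex family, had the largest changes of them, 2.12 and 4.88, and Dtx3 had 1.56 and 1.60. In the nuclear complex, 6 of 14 tested genes were higher and 5 lower in WT EBs, and 7 higher and 4 lower in WT N2B27. Rbpj, the DNA-binding partner of the cleaved receptor, was called lower in both, at a mean FPKM of 71.1 in WT ES cells, 31.8 in EBs and 27.3 in N2B27 (log2 changes -1.13 and -1.35). The coactivator Maml3 was called higher (2.26 and 2.96), as was L3mbtl3, a partner of RBPJ that takes part in repression (1.33 and 2.08). Rbpj was thus called lower in both cultures in which Nrarp was called higher.

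Proneural factors, which HES repressors hold down and which induce Delta ligands, were called lower for 2 of 7 tested genes in WT EBs (Neurod1, -0.82, and Neurog3, -0.88) and higher for none. In WT N2B27 6 of the 7 were higher and 1 was lower. Neurog1 changed by 4.11 and Insm1 by 3.09. Neurog1 and Insm1 were below 1 FPKM in every ES library, and Neurog3 reached 1 only in ES libraries. The changes of these genes are therefore descriptions too. Neural progenitor and neuron markers rose beside them: 10 of 10 and 9 of 10 in WT N2B27. Of the neuron markers Stmn2 (160.36 to 196.7 FPKM) and Tubb3 (110.26 to 125.63) were already high in ES cells. Dcx was at 0.03 or below there and Nefm, Elavl4, Map2 and Rbfox3 were below 1, so these were tested only because of the differentiated cultures. The same holds for the neural progenitor markers named above as below 1 in ES cells. The part of the cell makeup in these changes was not tested.

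**Figure D4:**
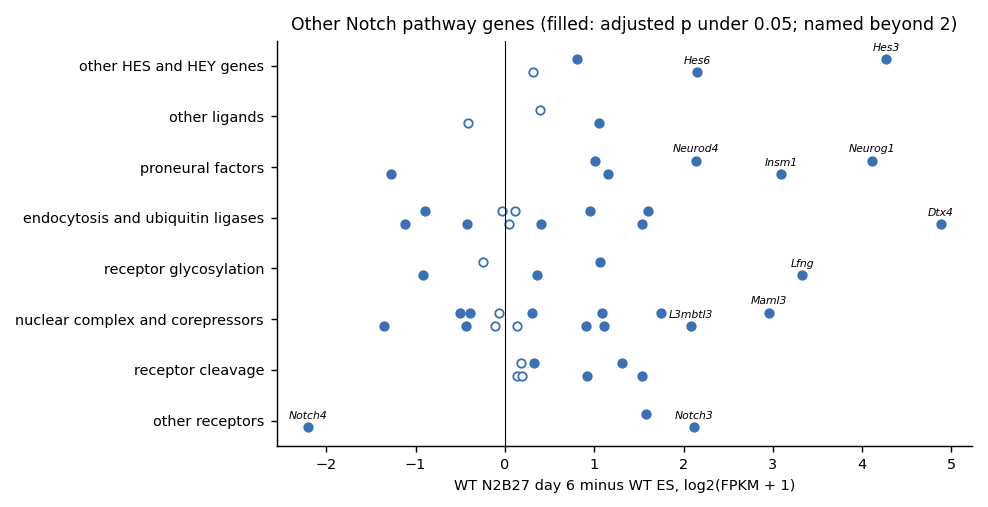
Log2 difference of FPKM + 1 between WT N2B27 and WT ES cells for tested pathway genes other than the members, arranged by role, with filled points for genes at an adjusted p under 0.05 in limma. Hes3, Dtx4, Neurog1 and Lfng lie farthest above 0, and Notch4 lies farthest below at -2.20. Hes3, Dtx4 and Neurog1 were below 1 FPKM in every ES library and were tested only because of the differentiated cultures.

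None of the 8 tested genes was called different between KO and WT ES cells, where 0.0% of all tested genes were called by limma. At an unadjusted p under 0.05 there were 0 of the 8 and 447 of all genes. The log2 differences, KO minus WT, lay between -0.19 ± 0.26 for Dll1 and 0.29 ± 0.16 for Dll3 (limma adjusted p = 1 for each). The difference was below 0 for 3 of the 8, as for 49.1% of all tested genes. In ES cells all KO libraries lay below both WT libraries for Dll1 (11.3% of all tested genes did so) and above them for Dll3 and Nrarp (12.7%).

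In EBs too none of the 8 passed, where 2.27% of all tested genes were called (84 higher and 209 lower in KO). At an unadjusted p under 0.05 there were 4 of the 8, and 1895 of all tested genes. The log2 difference was below 0 for 7 of the 8, as it was for 61.0% of all tested genes, and the median was -0.37 beside -0.04 over all tested genes. Dll3 and Jag1 were lower in all 3 KO EB libraries than in both WT EB libraries (2 of the 8, beside 18.1% of all tested genes). Dll3 differed by -0.63 ± 0.16 (limma adjusted p = 0.06) and Jag1 by -0.51 ± 0.13 (adjusted p = 0.0602). Hey1 differed by -0.58 ± 0.22 and Notch1 by -0.38 ± 0.13, with overlapping libraries (limma adjusted p = 0.22 and 0.187). Dll1 was at -0.37 ± 0.26, Nrarp at -0.28 ± 0.16, Hes1 at -0.24 ± 0.13 and Hes5 at 0.05 ± 0.2 (limma adjusted p = 0.433 to 0.941).

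These results turned in part on KO EB replicate 2. Of the KO EBs it had the highest Dll1, Hey1 and Hes5 (4.09, 4.11 and 0.78 FPKM). It also had the highest Notch1, Jag1 and Nrarp (5.39, 2.45 and 5.92 FPKM), while Dll3 and Hes1 were highest in KO EB replicate 1. Without it Dll1 (-0.75, limma adjusted p = 0.0114), Jag1 (-0.60, adjusted p = 0.0315) and Hey1 (-0.84, adjusted p = 0.0151) passed. Without WT EB replicate 2 Dll3 passed (-0.95, limma adjusted p = 0.0174). Over all alternatives the limma adjusted p ranged from 0.0114 to 0.843 for Dll1, 0.0174 to 0.373 for Dll3, 0.0315 to 0.393 for Jag1 and 0.0151 to 0.564 for Hey1. The summed FPKM of the neural progenitor markers overlapped between the genotypes in EBs (165.5 to 195.4 in KO, 174.1 and 207.6 in WT). Without Otx2, the highest of them in EBs, it was 71.2, 67.8 and 55.4 in KO EBs and 83.9 and 116.3 in WT EBs, without overlap. Summed pluripotency markers were higher in all KO EBs (1603.4 to 1890.0) than in WT EBs (1286.8 and 1336.5). Of these 8 markers 4 were higher in every KO EB, none was called, and Nanog, Zfp42, Klf4 and Esrrb overlapped. Endothelial markers were lower in all KO EBs (12.7 to 14.4 against 18.9 and 21.5), with 2 of 6 tested called lower. Of 10 neural progenitor markers 2 were called lower, with a median difference of -0.69. Emcn, 1 of the 8 endothelial markers listed, was at no more than 0.37 FPKM in any EB. Of the 8 streak and presomitic markers 2 were called lower, 8 had a difference below 0 and 7 had an unadjusted p under 0.05, with a median of -0.73. Their summed level was 110.5, 34.3 and 36.6 in KO EBs and 134.5 and 95.4 in WT EBs. Of 5 tested fibroblast markers 2 were called lower and 3 had a difference below 0, with a median of -0.78. Of 7 tested endoderm markers 2 were called lower, 6 had a difference below 0 and 5 had an unadjusted p under 0.05, with a median of -0.85. Their sums overlapped with Cldn6 and did not without it (25.3, 15.5 and 14.5 in KO EBs, 54.1 and 40.5 in WT EBs). The part of these cell types in the differences of Notch genes was not tested.

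Jag2 lay on the other side of 0 from the 3 member ligands in EBs. Its FPKM was 6.39 and 3.83 in WT and 6.85, 10.19 and 8.08 in KO, so that every KO library lay above both WT libraries, as for 8.34% of all tested genes. The log2 difference of 0.63 ± 0.16 did not pass (limma adjusted p = 0.0613). Jag2 made up 21.2 to 25.0% of the ligand FPKM in WT EBs and 40.3 to 49.5% in KO EBs, and Dll3 42.4 to 49.0% and 26.8 to 38.5%. Of the other pathway genes 1 was called in EBs, L3mbtl3, at a mean of 4.63 FPKM in KO and 7.03 in WT (-0.52 ± 0.13, limma adjusted p = 0.0482). It was lost with a pseudocount of 0.1 (adjusted p = 0.0614), without a filter (0.0746), with a filter of 5 FPKM (0.0584), with median-ratio scaling (0.0792) with only the compared groups (0.256), and in 11 of the fits with 1 library left out (limma adjusted p = 0.0528 to 0.329).

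In N2B27 none of the 8 genes was called between KO and WT, where 0.101% of all tested genes were (6 higher and 7 lower). At an unadjusted p under 0.05 there were 2 of the 8 (Hes5 and Jag1), and 1144 of all tested genes. All 8 differences were below 0 (Notch1 at 0.0 under median-ratio scaling), as were 55.5% over all tested genes, with a median of -0.29 beside -0.02. In 4 of the 8 (Dll1, Jag1, Hes5 and Hey1) every KO library lay below both WT libraries, beside 13.2% of all tested genes.

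Hes5 had the largest of these differences. Its 3 KO libraries (6.44 to 9.44 FPKM) lay below both WT libraries (11.82 and 19.55), which themselves differed widely, with means of 7.98 ± 1.5 (SD, n = 3) and 15.7 ± 5.47 (SD, n = 2). The log2 difference was -0.87 ± 0.20, with a limma adjusted p of 0.115. Without WT N2B27 replicate 2 the value was -1.21 and passed (adjusted p = 0.0355), and over all alternatives the adjusted p ranged from 0.0355 to 0.756. Jag1 was at 9.43 ± 0.361 (SD, n = 3) in KO and 13.3 ± 0.573 (SD, n = 2) in WT, a log2 difference of -0.45 ± 0.13 (limma adjusted p = 0.233). Nrarp differed by -0.33 (limma adjusted p = 0.596), Dll1 by -0.31 ± 0.26 and Hey1 by -0.28 ± 0.22 (adjusted p = 0.816 and 0.793). Notch1 (-0.02), Dll3 (-0.04) and Hes1 (-0.10) had the smallest differences, with overlapping libraries.

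Marker sums overlapped between the genotypes in N2B27 for neural progenitors (524.6 to 599.9 in KO, 519.0 and 595.3 in WT), for pluripotency (89.8 to 176.7 and 81.9 and 111.9) and for neurons (495.1 to 666.1 and 616.1 and 725.9). Of the 10 neuron markers none was called, all 10 differences were below 0 and 6 had an unadjusted p under 0.05, with a median of -0.36. Endoderm sums did not overlap (89.7, 93.8 and 93.0 in KO N2B27, 100.0 and 130.5 in WT N2B27). Of 7 tested endoderm markers none was called, 4 were lower in every KO library and 4 had an unadjusted p under 0.05, with a median of -0.70. The part of these markers in the difference of Hes5 was not tested. Notch2 was higher in every KO N2B27 library than in both WT libraries (0.39 ± 0.10, limma adjusted p = 0.178), as were 8.88% of all tested genes. Of the 55 other pathway genes none was called in N2B27.

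**Figure D5:**
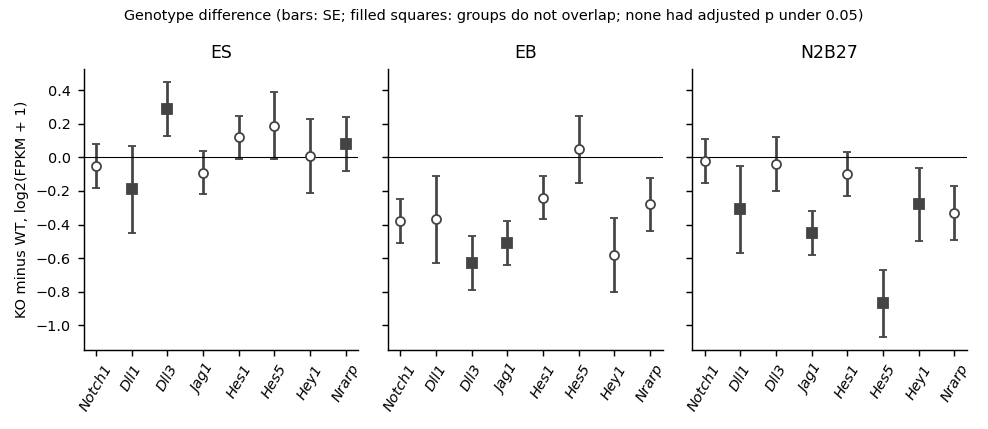
Log2 difference of FPKM + 1, KO minus WT, of the 8 tested genes in ES cells, EBs and N2B27, with bars of 1 standard error from limma. Differences lie on both sides of 0 in ES cells and mostly below it in EBs and N2B27, and none passes an adjusted p under 0.05.

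Whether the change between cultures differed between the genotypes was tested as an interaction. None of the 8 genes was called from ES cells to EBs (0.155% of all tested genes were), from ES cells to N2B27 (0.00773%) or from EBs to N2B27 (0.441%). At an unadjusted p under 0.05 there were 2, 1 and 2 of the 8, and 991, 620 and 1299 of all tested genes. The estimate for Dll3 from ES cells to EBs was below 0 (-0.92 ± 0.23, limma adjusted p = 0.178). Hes5 had -1.06 ± 0.28 from ES cells to N2B27 and -0.91 ± 0.28 from EBs to N2B27 (limma adjusted p = 0.696 and 0.201). Averaged over the 3 cultures, with each of the 5 library names as 1 value, none of the 8 genes was called (0.0541% of all tested genes were). At an unadjusted p under 0.05 there were 4 of the 8, and 1494 of all tested genes. Jag1 had -0.35 ± 0.09 there, with a limma adjusted p of 0.179.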

How the data were processed

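The authors deposited 1 table of FPKM values with 2 decimals, per the file headers. The submitters' processing notes name Bowtie2, RSEM and mm10, a mouse genome build, and give no roles or versions. Annotation and strand handling are not given in the sources used here. Groups were taken from titles. Nothing states that replicates were separate cultures, so the p-values cover only the spread among libraries, which may be technical. Values were transformed as log2(FPKM + 1) and fitted in R 4.3.3 by limma 3.58.1, with its trend option and 6 group means (9 residual degrees of freedom), and was checked on simulated data. Library depth was not given. Low values came out whole for at most 58.5% (tolerance 0.1 fragments), at totals that moved from 16000000 to 37300000 with the assumed length correction, so no count test was run and no interval given. Symbols of 27 genes had become dates and were restored by Entrez ID. Promoter windows and coordinates are from RefSeq GRCm38.p6. Members and lists were chosen with earlier results of these data known. Beyond the members, genes were named as the most changed called genes of each list in WT, and as the nearest in pattern by Pearson r. Alternatives were pseudocount, filter, scaling, samples in the fit, variance, block and leaving out libraries. Some genes of the lists are counted but not reported by name here. Marker sums without their highest gene were added after the values were seen.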

Additional observations from a re-analysis of the deposited data

How the results depend on the processing

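The calls of the 8 genes between cultures kept their direction and side of the threshold under each alternative, except for Notch1, Hes1 and Hes5 as given above and for Hes1 in WT N2B27 against EBs, which passed under TPM scaling (0.35, limma adjusted p = 0.0318). Differences near 0 changed sign: Hes1 in N2B27 against ES cells under median-ratio scaling in WT (-0.03) and TPM scaling in KO (0.02), and Notch1 between KO and WT N2B27 under median-ratio scaling (0.0). With 1 library or library name left out, the ranges that crossed 0 were, against ES cells, WT EBs for Notch1 (-0.08 to 0.34) and Hes1 (-0.17 to 0.06) and KO N2B27 for Hes1 (-0.2 to 0.01). Hey1 in KO N2B27 against EBs spanned -0.11 to 0.34. Between KO and WT, Hes5 in EBs spanned -0.11 to 0.13, and in N2B27 Notch1 spanned -0.08 to 0.05, Dll3 -0.15 to 0.06 and Hes1 -0.22 to 0.0. The members called between KO and WT ranged from 0 to 3 in EBs and from 0 to 1 in N2B27. The filter of 5 FPKM removed Hey1, which has no value there. The cause was not tested.

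Counts over all genes moved more. KO against WT in ES cells went from 0 genes to 1 without a filter (0 to 4 with 1 library left out). In EBs 293 became 181 with a pseudocount of 0.1, 156 with a filter of 5 FPKM and 19 with only the groups compared (56 to 383 left out). In N2B27 13 became 7 (pseudocount), 52 (no filter), 4 (filter of 5), 8 (median-ratio), 3 (TPM) and 0 (only the groups), and 0 to 249 left out. Over line means 7 became 0 (no filter), 11 (filter of 5), 13 (TPM) and 25 (robust variance), and 1 to 42 left out. The interaction from ES cells to EBs went from 20 to 1 (pseudocount), 36 (no filter) and 1 (filter of 5), and 1 to 69 left out. From ES cells to N2B27 it went from 1 to 0 (pseudocount, median-ratio and only the groups), 4 (no filter) and 2 (TPM), and 0 to 32 left out. From EBs to N2B27 it went from 57 to 19 (pseudocount), 29 (filter of 5) and 17 (only the groups), and 18 to 245 left out.

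Scaling moved the share of calls that were higher. Under median-ratio scaling it went from 60.3% to 49.7% in WT EBs against ES cells, from 28.7% to 41.7% between KO and WT EBs, from 46.2% to 75.0% between KO and WT N2B27, and from 10% to 23.8% for the interaction from ES cells to EBs. Under TPM scaling it went from 55.3% to 68.8% in WT and from 56.7% to 71.1% in KO N2B27 against EBs, and from 46.2% to 66.7% between KO and WT N2B27. The median log2 change of all tested genes moved with it, from 0.11 to -0.00 in WT EBs against ES cells (median-ratio) and from 0.06 to 0.28 in KO N2B27 against EBs (TPM).

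The library names recur in each culture. Their deviations from the group means correlated at -0.178 to 0.265, and the labels do not say what a shared name marks, so the names were not taken to pair the libraries. A KO library correlated best with its own number in 12 of 18 cases. Each case picks the best of 3 KO libraries, so some matches arise without any pairing. Pairs are also counted from both sides, so the cases are not independent. The count is at most a hint of pairing from the data, not from the design, and was not tested. With the replicate block the interaction from ES cells to EBs counted 7 genes in place of 20, and no call of the 8 genes changed.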
